A study of Rattus norvegicus with 36 samples.

Results

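iAM-1 is a line of atrial heart muscle cells from newborn Wistar rats that divides while doxycycline is in the medium and differentiates after the drug is withdrawn. The late stage of that differentiation is described here as the difference between day 9 (D9) and day 3 (D3) without doxycycline, over all genes measured. D3 and D9 have 4 libraries each, numbered replicates 1 to 4 in the labels, so 8 of the 36 libraries of the series were compared. All 8 come from the same line and strain. The cells had grown with 100 ng/ml doxycycline before differentiation, and received none between D0 and D9. The line is a single clone that carries lentiviral constructs for simian virus 40 large T antigen and for the repressor TetR-KRAB, as background, so both days share the transgenes and 1 genetic background. T antigen RNA measured 37.8, 37.7, 33.1 and 35.3 CPM on D3 and 32.9, 33.9, 33.8 and 27.6 CPM on D9. Its low level on both days was known when the days were chosen, so it is no check of their labels. The values of the days overlapped and the difference was not called (log2 difference -0.17 with SE 0.08, adjusted p = 0.088), with D9 replicate 4 the lowest of the 8 libraries. With every column rescaled to the same total it was called lower on D9 (log2 -0.21, adjusted p = 0.032), and so it was without D9 replicate 2 (log2 -0.20, adjusted p = 0.023). On D0 the same RNA had measured 2956 ± 158 CPM (SD, n = 4). TetR-KRAB measured 9.59, 8.31, 5.37 and 5.91 CPM on D3 and 5.75, 4.22, 5.27 and 4.80 CPM on D9, with overlapping values, and was called lower (log2 difference -0.47 with SE 0.17, adjusted p = 0.03). That call was lost without D3 replicate 1, without D3 replicate 2 and without D9 replicate 4 (adjusted p 0.063 to 0.11).

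A newborn atrial muscle cell already holds striated myofibrils, but its mature form depends on a slow exchange of parts. Contractile, calcium-handling and mitochondrial proteins accumulate, energy supply moves from glycolysis towards oxidation in mitochondria, fetal or ubiquitous isoforms give way to muscle isoforms, and division stops. Large T antigen binds and inactivates proteins that restrain the cell cycle, the retinoblastoma protein among them, which is why cells that carry it keep dividing. The antigen's RNA was low on both D3 and D9, so the comparison addresses changes that came after the fall of that RNA. The level of the protein was not measured here.

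The 8 libraries held 30.4 to 47.0 M recovered reads (M, 1e+06 reads), and 1 read was worth 0.0232 to 0.0361 CPM. Values are given in the order of replicates 1, 2, 3 and 4, in CPM (counts scaled by the authors to 1e+06), and a mean is followed by its SD over 4 libraries. The first principal component separated the days and held 77.9% of the variance. The second held 9.19% and separated D9 replicate 2, at -23.7, from the other D9 libraries, at 7.81 to 9.33. The median SD of a gene on the log2 scale was 0.0887 on D3 and 0.128 on D9, but 0.0755 on D9 without replicate 2. In that library complex I genes lay higher than in the other D9 libraries (median log2 0.299), and so did cytosolic ribosomal protein genes (0.200), beside 0.0249 over all rows. The call of a named gene that changes without it is given, and a list's count where it moves by over 1.5 times. Whether the 4 samples of a day were grown separately is not in the labels. The p-values therefore speak of the spread among these samples alone, and that spread may be technical.

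Most of the measured transcriptome differed between D3 and D9. Of 11630 rows tested, 6314 were called at an adjusted p under 0.05, which is 54.3%: 2739 were higher on D9 (23.6%) and 3575 lower (30.7%). Most changes were small. The median log2 difference was -0.045, with quartiles of -0.289 and 0.204, and 324 rows (2.79%) were called and at least 2-fold higher on D9 and 455 (3.91%) at least 2-fold lower. All 4 D9 libraries lay above all 4 D3 libraries in 2498 rows (21.5%) and below them in 3251 (28.0%). The balance of higher and lower rows depended on the scaling. Higher rows made up 43.4% of the calls here, 51.3% with median-of-ratios scaling, 50.6% by edgeR and 50.4% by DESeq2 on recovered reads, and 49.8% under quantile normalization. They made up 36.4% with every column rescaled to the same total and 29.3% in the deposited TPM table, where the median over all rows was -0.148. Where another scaling moved a count of a gene list by over 1.5 times, the range of its counts over 6 scalings is given beside it (the deposited CPM, median-of-ratios, equal column totals, quantile normalization, the TPM table and edgeR). Without D9 replicate 2, 6982 rows were called. Fold changes are those of log2(CPM + 0.5), which understates the change of low genes.

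The largest rise of all rows was that of Mb, which encodes myoglobin, the oxygen-binding protein of heart and slow skeletal muscle. It measured 1.36, 0.719, 0.784 and 1.44 CPM on D3 and 32.7, 31.7, 30.5 and 34.9 CPM on D9. It was near the detection filter of 1 CPM in every D3 library and between 30.5 and 34.9 CPM in every D9 library, a 21.4-fold rise (log2 difference 4.42 with SE 0.15, adjusted p = 5.1e-11). Per length it was still a minor transcript, at 65.2 ± 4.71 TPM on D9 beside 12070 ± 267 TPM for Myh6. Cox8b, the muscle isoform of a cytochrome c oxidase subunit, measured 3.31, 2.91, 2.64 and 3.03 CPM on D3 and 36.5, 18.1, 28.8 and 29.8 CPM on D9. All D9 libraries lay above all D3 libraries, but D9 replicate 2 had the lowest D9 value (8.07-fold, log2 difference 3.01 with SE 0.17, adjusted p = 8.7e-09). The promoters of these 2 genes are shown because Mb had the largest rise of all genes tested and Cox8b the largest among the listed respiratory chain genes, with each run ending at the base before the RefSeq start in assembly GRCr8 (Mb at chr7:110647743-110647892, minus strand, Cox8b at chr1:205408274-205408423, minus strand) and with a TATAAA match on either strand in capitals.
Mb: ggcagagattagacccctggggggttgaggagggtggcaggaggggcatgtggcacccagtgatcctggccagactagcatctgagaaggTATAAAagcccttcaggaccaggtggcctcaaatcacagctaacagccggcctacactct
Cox8b: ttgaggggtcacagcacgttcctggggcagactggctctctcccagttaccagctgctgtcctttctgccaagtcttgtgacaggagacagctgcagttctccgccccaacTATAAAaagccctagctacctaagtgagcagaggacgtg
The match began 60 bases before the start in Mb and 39 bases before it in Cox8b. TATAAA stood within 250 bases before the start in 5.79% of the 7904 tested genes matched to a promoter and in 12.9% of all 33469 promoters in the table.

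The other genes among the 12 largest rises include several membrane proteins of muscle. Kcng2, a modifying subunit of voltage-gated potassium channels, rose from 2.44 ± 0.547 to 35.2 ± 5.87 CPM (12.2-fold, log2 difference 3.61 with SE 0.14, adjusted p = 1.8e-10). Its highest value, 43.8 CPM, was that of D9 replicate 2, and the lowest D9 value was 30.7 CPM. Dhrs7c, an enzyme of the sarcoplasmic reticulum, rose from 3.11 ± 0.677 to 41.1 ± 2.75 CPM (11.7-fold). Tmem182, a muscle membrane protein, rose from 0.704 ± 0.251 to 9.88 ± 0.923 CPM. Murc, also called Cavin4, is a muscle coat protein of the membrane pits named caveolae and rose from 0.440 ± 0.330 to 6.55 ± 0.474 CPM. Tnni3k, a heart-restricted kinase that binds troponin I, rose from 9.61 ± 0.755 to 63.2 ± 3.06 CPM (6.31-fold). Perm1, which is induced by the coactivators of mitochondrial biogenesis in muscle, rose from 1.37 ± 0.233 to 14.0 ± 1.04 CPM (7.78-fold). Txlnb, a muscle member of the taxilin family, rose from 0.849 ± 0.288 to 17.4 ± 1.2 CPM (13.5-fold). Sema7a, a membrane-anchored semaphorin, rose from 6.32 ± 1.18 to 41.4 ± 2.90 CPM (6.21-fold). The kinase gene Sbk2 (8.55-fold) and Smim5, a gene for a small membrane protein (6.19-fold), complete the 12. In all 12 every D9 library lay above every D3 library, as in 21.5% of all rows. This adds no support, since the 12 were chosen by the size of their rise. Tmem182, Murc and Txlnb had D3 means below 1 CPM and met the filter through their D9 libraries.

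Many of the largest falls were of 2 kinds, genes of the extracellular matrix and genes of chromosome segregation. Fbln1, the matrix glycoprotein fibulin 1, measured 90.1, 92.7, 88.9 and 97.9 CPM on D3 and 4.08, 4.37, 4.13 and 4.52 CPM on D9. The D9 libraries sat between 4.08 and 4.52 CPM and the D3 libraries between 88.9 and 97.9 CPM (19.5-fold lower, log2 difference -4.28 with SE 0.07, adjusted p = 5.7e-14). Col1a1, the main chain of type I collagen, fell from 76.8 ± 7.07 to 5.04 ± 1.12 CPM (14.1-fold, log2 difference -3.82 with SE 0.12, adjusted p = 2.7e-11). Cxcl10, a chemokine induced by interferon, fell from 57.5 ± 2.29 to 4.61 ± 0.624 CPM (11.4-fold). Thbs3, a thrombospondin of the matrix, fell from 33.0 ± 1.33 to 4.86 ± 0.574 CPM (6.28-fold), and Cd109, a membrane protein that binds TGF-beta, fell from 102 ± 1.00 to 15.3 ± 0.931 CPM (6.46-fold). C1qtnf1, a secreted relative of adiponectin, fell from 32.2 ± 1.38 to 4.58 ± 0.430 CPM (6.45-fold). The remaining genes are Arhgap11a, a regulator of the GTPase RhoA, and 5 genes of mitosis or of the spindle, Ckap2, Top2a, Cenpf, Prc1 and Ndc80. In all 12 every D9 library lay below every D3 library, as in 28.0% of all rows. Again this adds no support, since the 12 were chosen by the size of their fall. Cenpf and Ndc80 had D9 means below 1 CPM and met the filter through their D3 libraries.

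**Figure D1:**
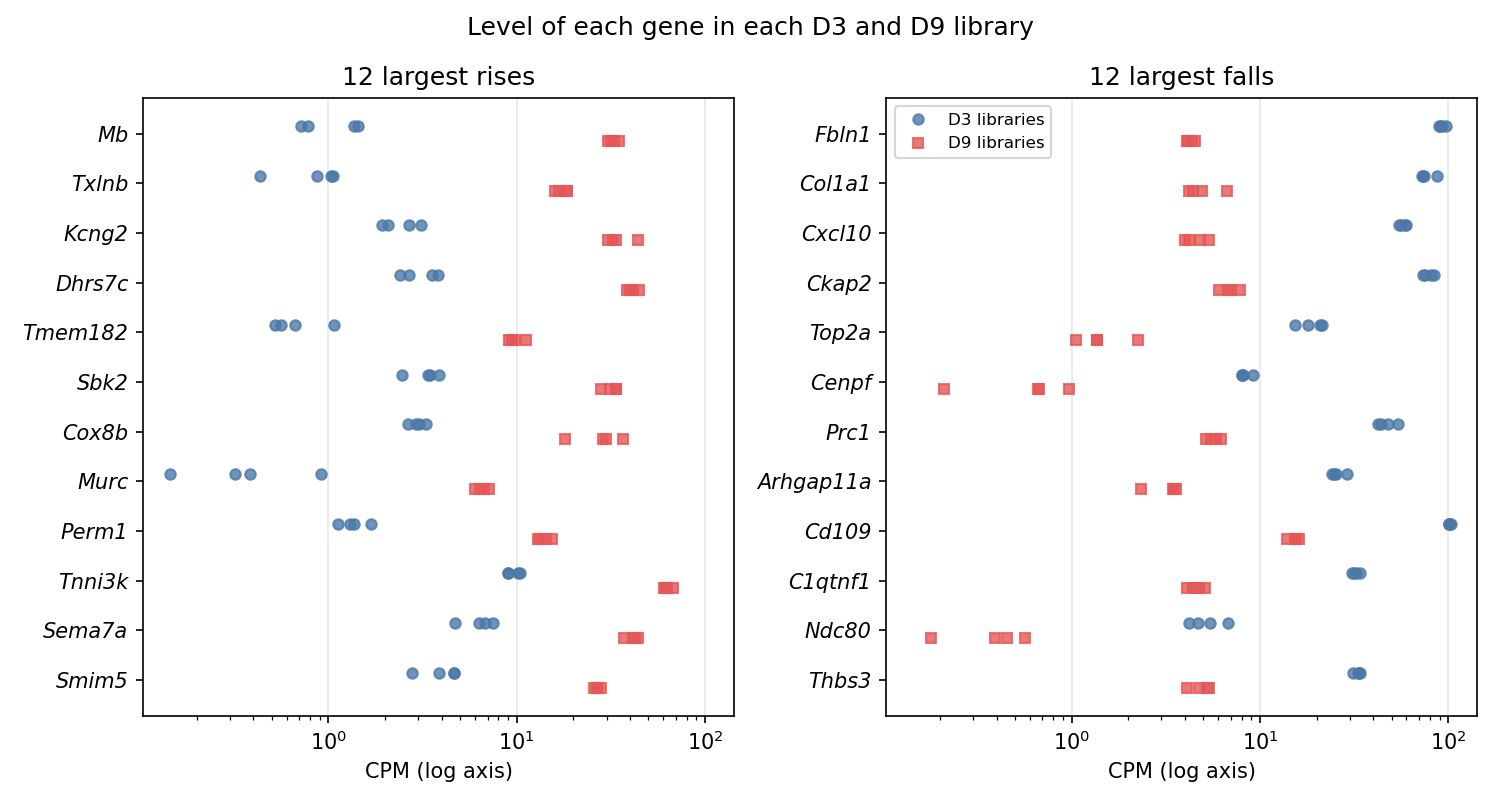
CPM on a log axis of each of the 12 genes with the largest rise (left) and the 12 with the largest fall (right). Circles are the 4 D3 libraries and squares the 4 D9 libraries. In each of the 24 genes, which were chosen by the size of their change, the days do not overlap. Mb lies at 0.719 to 1.44 CPM on D3 and 30.5 to 34.9 on D9.

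Every tested gene of the thick filament rose. Of 12 myosin and thick filament genes tested, 12 were called higher and 0 lower, with a median log2 difference of 0.89. This and each list below is to be read beside the 23.6% of all rows called higher, the 30.7% called lower and the median of -0.045. Myh6, the adult atrial myosin heavy chain, measured 8688, 8369, 8661 and 8383 CPM on D3 and 37880, 39780, 36550 and 38670 CPM on D9. The days did not overlap, and it stood 4.48-fold higher on D9 (log2 difference 2.16 with SE 0.03, adjusted p = 5.4e-14). Myh7, the slow heavy chain of fetal rat ventricle, measured 72.2, 67.9, 83.2 and 66.4 CPM on D3 and 293, 400, 310 and 269 CPM on D9, also without overlap (4.33-fold, log2 difference 2.12 with SE 0.11, adjusted p = 2.5e-08). The share of Myh6 in the TPM of the pair was 99.1% ± 0.0761 on D3 and 99.2% ± 0.133 on D9, with overlapping values, and the near-identical pair can share reads. The atrial regulatory light chain Myl7 rose from 1458 ± 59.9 to 3450 ± 242 CPM (2.36-fold), the atrial essential light chain Myl4 from 5207 ± 131 to 9117 ± 280 CPM (1.75-fold), and the myosin-binding protein Mybpc3 from 1936 ± 93.1 to 3163 ± 138 CPM (1.63-fold). The M-band gene Myom3 rose from 1.13 ± 0.497 to 4.54 ± 0.431 CPM (3.21-fold) and its relative Myom1 from 642 ± 21.1 to 955 ± 20.6 CPM (1.49-fold). Myom2 and Myh7b were called higher although their days overlapped.

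Thin filament genes moved in both directions. Of 14 tested, 9 were higher and 3 lower (median log2 0.54). Tnni3, the adult heart troponin I, measured 55.7, 51.8, 48.9 and 52.2 CPM on D3 and 219, 340, 217 and 223 CPM on D9. It was 4.67-fold higher on D9 (log2 difference 2.22 with SE 0.13, adjusted p = 9.6e-08), with D9 replicate 2 far above the other D9 libraries. Tnnc1, the calcium-binding troponin C of heart, measured 337, 331, 372 and 358 CPM on D3 and 897, 1389, 870 and 913 CPM on D9, and its highest value was again that of D9 replicate 2 (2.85-fold, log2 difference 1.51 with SE 0.14, adjusted p = 1e-05). Tnnt2 rose 1.46-fold, Actc1, the cardiac actin, 1.61-fold, and Tmod1, which caps the slow-growing end of the filament, 1.86-fold. The 3 that fell were skeletal actin Acta1 (from 28.8 ± 1.24 to 13.4 ± 1.55 CPM), Tpm4 (from 430.5 ± 8.96 to 245 ± 30.6 CPM) and Tpm3 (from 174 ± 4.92 to 118 ± 20.9 CPM), the last 2 being tropomyosins of non-muscle or slow fibres. Tpm1, the heart's main tropomyosin, rose from 6368 ± 136 to 10690 ± 2062 CPM, so its share in the TPM of Tpm1 and Tpm4 went from 83.2% ± 0.376 to 93.6% ± 0.357. Actin genes are near copies of one another, so their values are uncertain to the extent that reads were split between them.

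Of 22 Z-disc and costamere genes, 15 were higher and 6 lower (median log2 0.55). Myoz2, which binds calcineurin to the Z-disc, measured 38.1, 40.2, 39.7 and 43.0 CPM on D3 and 165, 143, 182 and 185 CPM on D9. Every D9 library lay above every D3 library (4.14-fold, log2 difference 2.05 with SE 0.08, adjusted p = 1e-10). Synpo2l, an actin-bundling protein of the Z-disc, measured 50, 51.4, 51.6 and 51.0 CPM on D3 and 215, 185, 201 and 201 CPM on D9 (3.90-fold, log2 difference 1.96 with SE 0.05, adjusted p = 5.3e-12). Tcap, the cap of titin, rose from 9.17 ± 0.686 to 30.9 ± 2.32 CPM (3.24-fold). The cross-linker Actn2 rose from 563 ± 10.2 to 1142 ± 69.5 CPM (2.02-fold). Among those that fell were Pdlim3 (1.45-fold), Pdlim5 (1.31-fold) and the sarcoglycan Sgcb (1.36-fold). Des, the intermediate filament desmin, was called lower (log2 -0.15, adjusted p = 0.032) although its days overlapped, with D9 replicate 2 above the other D9 libraries. The call was lost without D3 replicate 1, 2 or 3 and without D9 replicate 1, 3 or 4 (adjusted p 0.063 to 0.11). The letters CTANNNNTAG are a loose form of the sites that MEF2 factors bind. Any base was allowed at the 4 places marked N, so a match need not be a MEF2 site. They stood on either strand within 250 bases before the start of 4 of 13 matched genes of the list, Myoz2, Des, Hspb7 and Smpx. That is 30.8%, beside 2.67% of the tested genes and 3.41% of all promoters. In the other lists searched it was 10% or less, with 1 of 10 thick filament and 0 of 10 thin filament genes. Of the 4 Z-disc and costamere genes, Myoz2 and Smpx rose (1.93-fold for the latter) and Des was called lower. Hspb7 was not called (adjusted p = 0.13), but without D9 replicate 2 it was higher (log2 0.35, adjusted p = 4.4e-09). The match in Myoz2 (chr2:213852779-213852928, minus strand) is shown in capitals and starts 53 bases before the start.
Myoz2: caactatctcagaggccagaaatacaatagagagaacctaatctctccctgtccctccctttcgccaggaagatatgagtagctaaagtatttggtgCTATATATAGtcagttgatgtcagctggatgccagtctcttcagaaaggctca

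Genes of calcium cycling were mostly higher or not called: of 26 tested, 15 were higher and 3 lower (median log2 0.33). Of the 3, Camk2b had no D9 library at 1 CPM. Among the 25 genes with at least 1 CPM on both days 15 were higher and 2 lower. Atp2a2, the calcium pump that refills the sarcoplasmic reticulum, measured 8761, 8793, 8771 and 9018 CPM on D3 and 18900, 23180, 19530 and 19260 CPM on D9. The days did not overlap (2.28-fold, log2 difference 1.19 with SE 0.05, adjusted p = 7.5e-10), although under quantile normalization, which gives the top ranks of every library the same value, it was not called (adjusted p = 1). The release channel Ryr2 rose from 675 ± 54.0 to 1087 ± 26.4 CPM (1.61-fold), and the pump inhibitor Pln rose from 684 ± 19.6 to 1160 ± 170 CPM (1.68-fold), with D9 replicate 2 the lowest D9 library. Sln, the atrial pump inhibitor, was called higher with overlapping days (34.2 ± 3.60 CPM on D3 and 44.0 ± 6.94 CPM on D9, adjusted p = 0.016), a call lost without D3 replicate 1 or 2 and without D9 replicate 4 (adjusted p 0.050 to 0.053). The heart's calcium buffer Casq2 rose 1.54-fold while its skeletal relative Casq1 fell 1.80-fold, so Casq2 went from 97.6% ± 0.188 to 99.2% ± 0.0688 of the TPM of the pair. Of the calmodulin kinases, Camk2a rose from 3.03 ± 0.396 to 5.58 ± 0.789 CPM and Camk2b fell from 2.54 ± 0.369 to 0.846 ± 0.0781 CPM.

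Of 16 atrial-enriched genes, 12 were higher and 0 lower (median log2 0.41), and without D9 replicate 2 it was 12 and 2. Over the scalings 7 to 12 were higher and 0 to 2 lower. Nppa, the precursor of atrial natriuretic peptide, measured 19590, 18750, 20060 and 19160 CPM on D3 and 29140, 26380, 26190 and 27880 CPM on D9 (1.41-fold, log2 difference 0.50 with SE 0.04, adjusted p = 1.4e-07). Per length it stood at 58720 ± 4168 TPM on D9, above Myh6 at 12070 ± 267 TPM. Under quantile normalization its difference reversed (log2 -0.61, adjusted p = 2.9e-10). Corin, the protease that cleaves this precursor, rose from 24.2 ± 1.24 to 75.2 ± 2.69 CPM (3.07-fold). The atrial myosin-binding relative Mybphl rose 1.89-fold and the lipid-transfer gene Stard10 1.72-fold. Not called were Nppb, the gene of B-type natriuretic peptide (770.2 ± 34.8 CPM on D3 and 758 ± 87.5 CPM on D9, adjusted p = 0.75), the atrial growth factor Bmp10 (adjusted p = 0.33), Dkk3 (adjusted p = 0.82) and the atrial identity factor Nr2f2 (adjusted p = 0.055). Without D9 replicate 2, Nppb was lower by a small step (adjusted p = 0.013) and so was Nr2f2 (log2 -0.23, adjusted p = 0.035). The call of Nr2f2 was also made without D3 replicate 2, D3 replicate 3 or D9 replicate 3.

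Of 18 ion channel genes, 10 were higher and 3 lower (median log2 0.29). Both subunits of the ATP-sensitive potassium channel rose, Abcc8 from 19.8 ± 1.61 to 73.3 ± 2.76 CPM (3.64-fold, log2 difference 1.86 with SE 0.07, adjusted p = 8.8e-11) and Kcnj11 from 11.0 ± 1.97 to 35.4 ± 1.70 CPM (3.16-fold, log2 difference 1.66 with SE 0.11, adjusted p = 2.3e-08). Kcnj12, an inward rectifier that holds the resting potential, rose from 5.79 ± 0.691 to 17.6 ± 0.915 CPM (2.88-fold), and Kcnq1, which carries a slow repolarising current, rose from 11.8 ± 1.35 to 37.4 ± 3.30 CPM (3.07-fold). The pacemaker channel Hcn4 rose from 31.5 ± 1.94 to 65.6 ± 6.12 CPM (2.06-fold). The 2 subunits of the acetylcholine-gated channel of the atrium differed less, with Kcnj5 1.38-fold higher and Kcnj3 called higher with overlapping days (adjusted p = 0.023). The call of Kcnj3 was lost without D3 replicate 2 or 3 and without D9 replicate 1, 3 or 4 (adjusted p 0.055 to 0.081). Lower were the chloride transporter Clcn3, the stretch-gated channel Piezo1 and Trpm4, by 1.37-, 1.37- and 1.39-fold.

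Junction genes and transcription factors were split. Of 17 intercalated disc genes 5 were higher and 5 lower, near the shares of all rows (23.6% and 30.7%). Their median changed sign with the scaling (-0.129 to 0.028), with 5 to 7 higher and 3 to 7 lower. The connexin Gjc1 rose from 21.7 ± 1.42 to 54.5 ± 8.05 CPM and the linker Dsp from 529.8 ± 20.7 to 884 ± 50.8 CPM, while Dsc2 fell from 61.8 ± 2.46 to 31.4 ± 1.31 CPM, Dsg2 from 609 ± 7.83 to 427 ± 37.9 CPM and the cadherin Cdh2 from 1147 ± 25.8 to 839.8 ± 56.0 CPM. The main connexin of working muscle, Gja1, was not called (841 ± 11.6 CPM on D3 and 876 ± 76.6 CPM on D9, adjusted p = 0.43), and without D9 replicate 2 it was higher by log2 0.12 (adjusted p = 0.0014). Of 23 cardiac transcription factors 9 were higher and 10 lower (4 to 9 and 8 to 11 over the scalings). Nkx2-5 rose from 123 ± 6.08 to 178 ± 17.1 CPM (log2 difference 0.53 with SE 0.07, adjusted p = 1.5e-05) and Mef2a from 326 ± 11.7 to 428 ± 45.2 CPM (log2 difference 0.39 with SE 0.07, adjusted p = 0.00024). Mef2c fell from 265 ± 12.1 to 227 ± 18.7 CPM (log2 difference -0.23 with SE 0.06, adjusted p = 0.0062) and Gata4 was called lower by a small step (log2 -0.13, adjusted p = 0.032), a call lost without any 1 of the D3 libraries and without D9 replicate 4 (adjusted p 0.052 to 0.083). Smyd1, a muscle methyltransferase needed for myofibrils, rose from 96.3 ± 3.82 to 224 ± 37.1 CPM (2.29-fold), and Tead4 rose 2.00-fold. Tbx2 and Tbx18, which mark slow-conducting or venous myocardium, fell from 4.23 ± 0.615 to 1.15 ± 0.383 CPM and from 348 ± 17.2 to 198 ± 6.70 CPM. Of 21 autonomic and hormone receptors 11 were higher and 5 lower. The beta-1 receptor Adrb1 rose from 34.9 ± 5.22 to 71.6 ± 12.8 CPM (2.03-fold). Npr3, the clearance receptor of natriuretic peptides, rose from 136 ± 5.75 to 311 ± 15.6 CPM (2.29-fold), while their signalling receptor Npr1 was called lower with overlapping days (adjusted p = 0.0076).

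Nuclear genes of the respiratory chain rose almost without exception. Of 85 genes of complexes I to IV and ATP synthase, 80 were called higher, 1 lower and 4 not called, with a median log2 difference of 0.689 and quartiles of 0.547 and 0.873. Most changes were below 2-fold, which 11 of the 85 reached. The range was widest in complex IV, from log2 -0.28 to 3.01. By complex, 36 of 36 tested genes of complex I were higher, 15 of 15 of complexes II and III, 15 of 18 of complex IV and 14 of 16 of ATP synthase. In complex IV 0 to 2 were lower over the scalings. Ndufs1, the largest subunit of complex I, measured 326, 326, 341 and 346 CPM on D3 and 761, 882, 796 and 804 CPM on D9. All D9 libraries lay above all D3 libraries, with replicate 2 the highest (2.42-fold, log2 difference 1.27 with SE 0.05, adjusted p = 1.2e-10). Ndufv1, which accepts electrons from NADH, rose from 255 ± 15.3 to 618 ± 81.2 CPM (2.41-fold). Sdha, the catalytic subunit of complex II, rose from 442 ± 21.6 to 901 ± 66.4 CPM, Uqcrfs1, the iron-sulfur subunit of complex III, from 148 ± 4.04 to 306 ± 66.8 CPM, and Atp5b, the catalytic beta subunit of ATP synthase, from 3424 ± 130 to 7596 ± 600 CPM. In complex IV, Cox4i1 rose from 660.2 ± 79.2 to 1066 ± 205 CPM, while the assembly factor Cox11 was the gene called lower (19.3 ± 2.29 CPM on D3 and 15.8 ± 0.99 CPM on D9, adjusted p = 0.021). Its call was lost without D3 replicate 4 (adjusted p = 0.080) and without D9 replicate 1 (0.064). Not called were Cox6a1, Cox7a2, Atp5g2 and the ATP synthase inhibitor Atpif1. Without D9 replicate 2, the counts of higher genes were 36, 15, 15 and 15, Atp5g2 being added (log2 0.26) and Cox6a1 being called lower (log2 -0.12). Cox7a2 was called higher without D3 replicate 3 (log2 0.28).

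Enzymes that feed the chain rose too. Of 26 genes of the tricarboxylic acid cycle and pyruvate use, 25 were higher and 1 lower (median log2 0.78). Got1, an enzyme of the malate-aspartate shuttle, measured 44.9, 47.7, 47.4 and 46.2 CPM on D3 and 143, 165, 133 and 133 CPM on D9 (3.05-fold, log2 difference 1.61 with SE 0.07, adjusted p = 3.3e-10). Fumarase, Fh, rose from 86.0 ± 1.39 to 231 ± 17.2 CPM (2.67-fold) and malate dehydrogenase Mdh1 from 444 ± 8.98 to 1036 ± 134 CPM (2.32-fold). The gene that fell was Pdk4, a kinase that shuts pyruvate dehydrogenase off (53.9 ± 3.62 CPM on D3 and 35.6 ± 5.39 CPM on D9, log2 difference -0.60 with SE 0.10, adjusted p = 0.00015). Its relatives Pdk1 and Pdk2, on the same list, were among the 25 called higher. Of 30 genes of fatty acid use, 20 were higher and 7 lower (median log2 0.48), and among the 29 with at least 1 CPM on both days it was 20 and 6. The fatty acid transporter Cd36 rose from 1.10 ± 0.157 to 5.39 ± 1.09 CPM (3.65-fold), Hadh, an enzyme of beta-oxidation, from 34.5 ± 1.97 to 72.8 ± 7.66 CPM, and the binding protein Fabp3 from 240.5 ± 6.76 to 383 ± 42.4 CPM. Both carnitine palmitoyltransferases that control entry of fatty acids into mitochondria fell, Cpt1a from 244 ± 3.92 to 157 ± 17.7 CPM (1.56-fold, log2 difference -0.64 with SE 0.07, adjusted p = 3.8e-06) and the muscle form Cpt1b from 5.57 ± 0.404 to 2.75 ± 0.370 CPM (1.88-fold, log2 difference -0.91 with SE 0.13, adjusted p = 5e-05). The uncoupling protein gene Ucp2 fell from 181 ± 4.72 to 79.1 ± 1.33 CPM (2.28-fold) and Angptl4, an inhibitor of lipoprotein lipase, from 5.62 ± 0.589 to 1.12 ± 0.272 CPM (3.81-fold).

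Of 27 genes listed as mitochondrial regulators, with Mb, Perm1, Ckm and Ckb included, 16 were higher and 1, Pparg, was lower. Ckm had no D3 library at 1 CPM, and among the 26 with at least 1 CPM on both days 15 were higher and 1 lower. Without D9 replicate 2 the counts of all 27 were 18 and 2. Over the scalings 14 to 17 were higher and 1 to 5 lower. The coactivator Ppargc1a measured 15.6, 14.2, 13.7 and 15.6 CPM on D3 and 31.7, 27.5, 33.2 and 37.0 CPM on D9, without overlap (2.14-fold, log2 difference 1.10 with SE 0.09, adjusted p = 2.6e-07). Its nuclear receptor partners Esrra (1.49-fold) and Ppara (2.07-fold) also rose. Nrf1 (32.1 ± 1.46 CPM on D3 and 30.4 ± 1.23 CPM on D9, adjusted p = 0.32) and Tfam, which packages mitochondrial DNA and starts its transcription (58.4 ± 3.24 CPM on D3 and 57.5 ± 3.93 CPM on D9, adjusted p = 0.79), were not called. Genes of the mitochondrial ribosome were higher in 46 of 69 and lower in 0 (median log2 0.29; 30 to 50 higher and 0 to 1 lower over the scalings), led by Mrpl12 (from 66.5 ± 4.32 to 156 ± 49.9 CPM), whose highest value was that of D9 replicate 2. The letters CGCANGCG, the core of sites that NRF1 binds, stood within 250 bases before the start in 10 of 33 complex I genes (30.3%) and 12 of 52 genes of the mitochondrial ribosome (23.1%), beside 16.6% of tested genes. They also stood in 11 of 36 mitosis genes (30.6%). AAGGTCA, a core of the sites of ERR receptors, stood in 2 of 33 complex I genes and in 1.99% of tested genes.

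Several enzymes and transporters have a widely expressed form and a form of heart or skeletal muscle, and in most pairs examined the muscle form gained share. Shares are of the TPM of each pair, and are described without a test because the pairs were chosen with their values known. Ldhb, the heart form of lactate dehydrogenase, measured 36.0, 36.4, 38.8 and 39.7 CPM on D3 and 189, 235, 199 and 207 CPM on D9 (5.43-fold, log2 difference 2.44 with SE 0.07, adjusted p = 5.3e-12). Ldha also rose, 1.17-fold, and the share of Ldhb was 3.60, 3.65, 3.50 and 3.85% on D3 and 14.6, 14.9, 15.2 and 15.5% on D9. Pygm, the muscle glycogen phosphorylase, rose from 5.79 ± 0.434 to 38.1 ± 2.33 CPM (6.14-fold) and went from 2.07% ± 0.191 to 10.0% ± 0.754 of its pair with Pygb. Eno3, muscle enolase, went from 26.4% ± 0.490 to 37.2% ± 0.691 of its pair with Eno1. The insulin-responsive glucose transporter Slc2a4 rose from 1.97 ± 0.435 to 5.26 ± 0.820 CPM while the ubiquitous Slc2a1 fell from 253 ± 2.87 to 114 ± 3.11 CPM (2.23-fold), and the share of Slc2a4 went from 0.797% ± 0.181 to 4.58% ± 0.697. Muscle creatine kinase Ckm rose from 0.669 ± 0.169 to 4.08 ± 0.622 CPM and reached 3.00% ± 0.262 of its pair with Ckb, from 0.431% ± 0.106. Ckb was not called (154 ± 6.25 CPM on D3 and 132 ± 26.6 CPM on D9, adjusted p = 0.088), and without D9 replicate 2 it was lower (log2 -0.36, adjusted p = 5.5e-07). Cox8b went from 1.01% ± 0.0282 to 6.27% ± 1.57 of its pair with Cox8a, with D9 replicate 2 lowest at 3.97%, and Cox6a2 from 0.192% ± 0.0250 to 0.686% ± 0.240 of its pair with Cox6a1. In each of these 7 pairs the days did not overlap, yet on D9 the widely expressed member still held the larger share. The muscle transferase Cpt1b was an exception, with 2.54% ± 0.197 of its pair with Cpt1a on D3 and 1.99% ± 0.371 on D9, and overlapping days. Over 26 glycolysis genes, 17 were higher and 5 lower (median log2 0.28), the lower ones including Pfkp (1.35-fold) and the regulator Pfkfb3 (1.63-fold). Gapdh was not called (adjusted p = 0.99) and measured 276, 161, 280 and 297 CPM on D9, with replicate 2 well below the others, and without that library it was higher (log2 0.21, adjusted p = 3.3e-05).

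**Figure D2:**
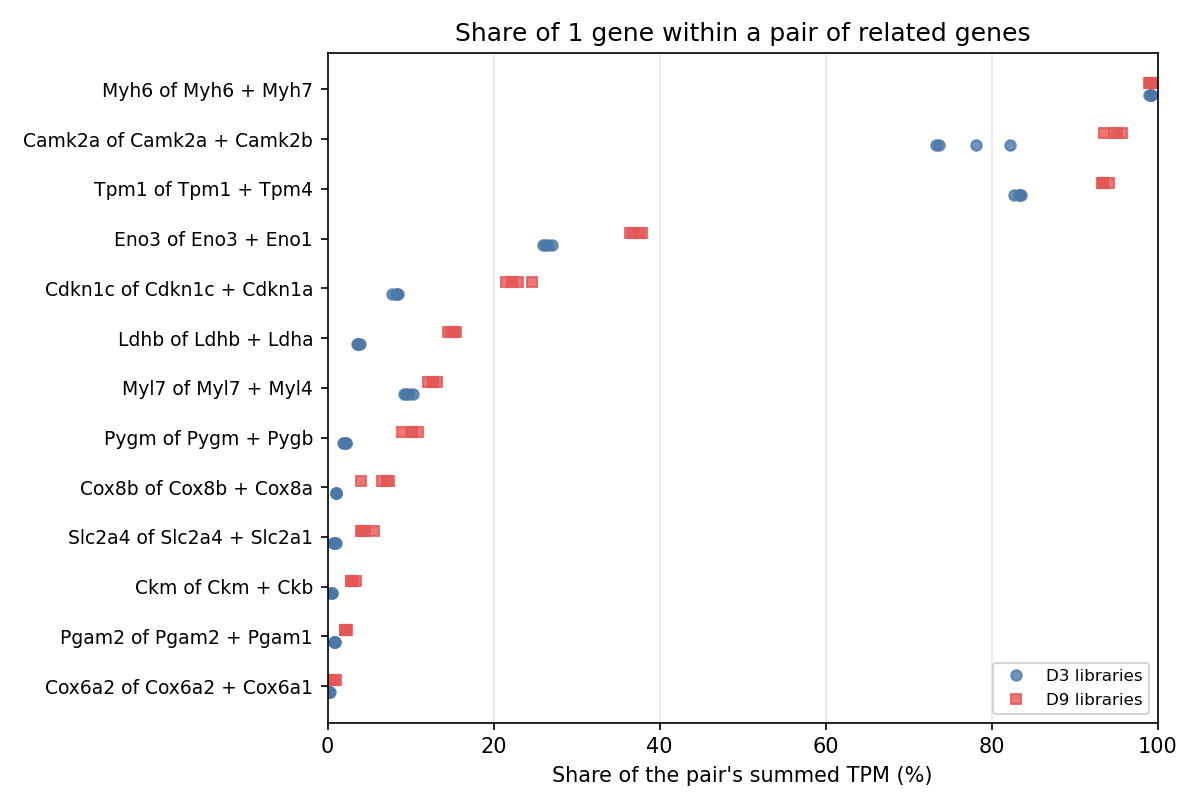
Share in percent of the first gene in the TPM of 2 related genes, for each pair on the vertical axis. Circles are the 4 D3 libraries and squares the 4 D9 libraries. Ldhb of Ldhb and Ldha goes from 3.50 to 3.85% on D3 to between 14.6 and 15.5% on D9, whereas Myh6 of Myh6 and Myh7 stays near 99% with overlapping days.

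Mitosis genes fell in every tested case. Of 43 tested, 43 were called lower, 37 of them at least 2-fold, with a median log2 difference of -1.79. In 13 of the 43 no D9 library reached 1 CPM, and over the 30 with at least 1 CPM on both days 30 were lower. Top2a, which untangles DNA before segregation, measured 18.0, 20.9, 15.4 and 21.3 CPM on D3 and 1.36, 1.05, 2.24 and 1.37 CPM on D9. Every D9 library lay below every D3 library (9.82-fold lower, log2 difference -3.30 with SE 0.17, adjusted p = 2.1e-09). Cenpf, a kinetochore protein, measured 8.06, 9.23, 8.16 and 8.03 CPM on D3 and 0.662, 0.974, 0.675 and 0.209 CPM on D9, with no D9 library at 1 CPM (8.10-fold lower, log2 difference -3.02 with SE 0.20, adjusted p = 2.4e-08). Prc1, which bundles the central spindle, measured 44.1, 54.2, 42.4 and 48.1 CPM on D3 and 5.19, 5.52, 6.18 and 5.82 CPM on D9 (7.70-fold lower, log2 difference -2.95 with SE 0.09, adjusted p = 2.3e-11). Ndc80, which attaches kinetochores to microtubules, fell from 5.28 ± 1.11 to 0.399 ± 0.162 CPM, and the mitotic kinase Cdk1 from 6.29 ± 0.974 to 0.709 ± 0.169 CPM and its cyclin Ccnb1 from 5.79 ± 0.457 to 0.902 ± 0.382 CPM. Ckap2, a spindle protein, fell from 78.7 ± 4.77 to 6.92 ± 0.729 CPM and Arhgap11a from 25.9 ± 2.16 to 3.22 ± 0.585 CPM. Mki67, the Ki-67 antigen of cycling cells, fell less, from 51.1 ± 6.33 to 24.8 ± 2.58 CPM (2.04-fold, log2 difference -1.03 with SE 0.09, adjusted p = 6.5e-07).

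The promoters of 3 of these genes are shown because 2 short motifs were frequent in the list. They are TTTGAA, a CHR element at which repressing complexes of cell cycle genes bind, and the CCAAT box, both searched on either strand and shown in capitals (a CHR on the minus strand reads TTCAAA and a CCAAT box ATTGG). Each run is the last 150 bases before the RefSeq start in GRCr8.
Top2a: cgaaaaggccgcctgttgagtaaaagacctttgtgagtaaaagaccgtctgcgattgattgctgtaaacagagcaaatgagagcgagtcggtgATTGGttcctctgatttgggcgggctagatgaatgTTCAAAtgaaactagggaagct
Cenpf: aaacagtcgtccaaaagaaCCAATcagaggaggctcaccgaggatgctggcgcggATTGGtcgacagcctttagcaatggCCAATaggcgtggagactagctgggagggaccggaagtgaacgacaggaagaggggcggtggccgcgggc
Prc1: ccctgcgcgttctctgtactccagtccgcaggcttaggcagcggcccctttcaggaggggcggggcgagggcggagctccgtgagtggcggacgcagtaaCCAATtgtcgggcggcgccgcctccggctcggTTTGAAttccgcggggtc
They lie at chr10:84473094-84473243, minus strand, chr13:103760887-103761036, minus strand and chr1:143659331-143659480, plus strand. Top2a and Prc1 hold a CHR match that begins 22 and 18 bases before the start, with a CCAAT box upstream of it at 57 and 50 bases, and Cenpf holds 3 CCAAT boxes and no CHR match. Within 250 bases before the start, 17 of 36 matched mitosis genes held a CHR match (47.2%), beside 10.1% of tested genes and 16.2% of all promoters. A CCAAT box stood in 27 of the 36 (75%), beside 36.0% of tested genes and 34.0% of all promoters. Of 30 DNA replication genes, 2 held a CHR match (6.67%) and 16 a CCAAT box (53.3%). Over all other lists searched, a CHR match stood in 0 to 21.2% and a CCAAT box in 20 to 54.5%. The highest of these were the mitochondrial ribosome for CHR and the tricarboxylic acid cycle for CCAAT, both lists that rose. Ndc80 held neither in this window.

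DNA replication genes were divided. Of 35 tested, 15 were lower, 6 of them at least 2-fold, and 2 were higher (median log2 -0.13). Among the 34 with at least 1 CPM on both days 14 were lower and 2 higher. Without D9 replicate 2, 16 of the 35 were lower and 4 higher. Over the scalings 14 to 16 were lower and 1 to 5 higher. Rrm2, which supplies deoxynucleotides, fell from 5.43 ± 0.729 to 0.580 ± 0.310 CPM (5.64-fold, log2 difference -2.50 with SE 0.21, adjusted p = 2.2e-07), and Mcm5, a subunit of the replicative helicase, fell from 5.37 ± 1.15 to 0.974 ± 0.234 CPM (3.96-fold, log2 difference -1.99 with SE 0.18, adjusted p = 5.1e-07). Mcm2 of the same helicase was not called (22.9 ± 2.31 CPM on D3 and 22.6 ± 1.31 CPM on D9, adjusted p = 0.92). Nor were the sliding clamp Pcna (64.3 ± 1.48 CPM on D3 and 67.5 ± 5.81 CPM on D9, adjusted p = 0.39) and Dnmt1, which copies DNA methylation (96.3 ± 3.93 CPM on D3 and 95.7 ± 2.08 CPM on D9, adjusted p = 0.89). The primase partner Pola2 rose from 6.17 ± 0.794 to 10.9 ± 1.36 CPM. Of 28 cell cycle regulators 16 were lower and 2 higher (median log2 -0.32), and over the scalings 15 to 18 and 2 to 4. Cyclin D1, Ccnd1, fell from 264 ± 3.86 to 168 ± 7.89 CPM, and the inhibitor Cdkn1a fell from 878 ± 41.5 to 472 ± 38.0 CPM (1.86-fold, log2 difference -0.90 with SE 0.06, adjusted p = 1.6e-08). The inhibitor Cdkn1c rose instead, from 81.8 ± 6.64 to 146 ± 21.3 CPM (1.78-fold, log2 difference 0.83 with SE 0.09, adjusted p = 4.2e-06), and took 22.8% ± 1.34 of the TPM of the pair, from 8.16% ± 0.327.

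Genes of the extracellular matrix also fell widely. Of 26 collagens and collagen-processing genes, 23 were lower, 18 of them at least 2-fold, and 1 higher (median log2 -1.13), with 0 to 2 higher over the scalings. Among the 25 with at least 1 CPM on both days 22 were lower and 1 higher. Lox, which cross-links collagen, measured 409, 427, 416 and 425 CPM on D3 and 93.9, 90.7, 102 and 94.8 CPM on D9 (4.38-fold lower, log2 difference -2.13 with SE 0.05, adjusted p = 1.4e-12). Its relative Loxl2 measured 242, 245, 255 and 249 CPM on D3 and 45.8, 50.8, 47.4 and 45.3 CPM on D9 (5.20-fold lower, log2 difference -2.38 with SE 0.05, adjusted p = 1.2e-12). In both genes all D9 values lay below all D3 values. Col4a2, a basement membrane collagen, fell from 3659 ± 404 to 1724 ± 242 CPM (2.13-fold). Col3a1 fell from 16.1 ± 0.881 to 5.09 ± 1.13 CPM (3.01-fold). The gene called higher was the collagen hydroxylase P4ha3, with overlapping days (adjusted p = 0.021), and its call was lost without D3 replicate 1 or 2 and without D9 replicate 1 or 3 (adjusted p 0.051 to 0.072). Of 28 matricellular and basement membrane genes 21 were lower and 5 higher (median log2 -0.97), and among the 27 with at least 1 CPM on both days it was 20 and 5. Fibronectin, Fn1, measured 11800, 11820, 11150 and 11850 CPM on D3 and 3030, 2402, 2871 and 3071 CPM on D9 (4.12-fold lower, log2 difference -2.04 with SE 0.07, adjusted p = 9.5e-11). Lama2, the laminin chain that surrounds mature muscle fibres, rose from 4.36 ± 0.804 to 16.6 ± 1.28 CPM (3.54-fold), as did Abi3bp (2.21-fold) and Cyr61 (1.48-fold).

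Markers of fibroblasts moved with these genes. Of 12 fibroblast markers 8 are in the table and 6 were tested. All 6 were lower, of which Thy1 had no D9 library at 1 CPM, and over the 5 with at least 1 CPM on both days 5 were lower. The 6 had a summed level of 307.7 to 326.1 CPM on D3 and 48.4 to 55.9 CPM on D9. Among them S100a4 fell from 106 ± 3.30 to 26.9 ± 1.04 CPM (3.89-fold), Ddr2 from 19.9 ± 1.97 to 9.30 ± 0.261 CPM and Thy1 from 4.08 ± 0.410 to 0.731 ± 0.0804 CPM, and Col1a1, Col3a1 and Fbln1 are also on that list. In bulk RNA fewer cells of a type and less RNA per cell cannot be told apart, and the part of other cells in the matrix result was not tested. The 9 cardiomyocyte markers tested were all higher, with a summed level of 27620 to 28730 CPM on D3 and 67660 to 77130 CPM on D9. Of 9 smooth muscle markers 5 were lower and 2 higher, with Cnn1 falling from 308 ± 5.80 to 148 ± 23.0 CPM, whereas Acta2, which fetal heart muscle also expresses, was 1.19-fold higher (8320 ± 352 CPM on D3 and 9878 ± 751 CPM on D9) and under quantile normalization reversed without a call (log2 -0.10, adjusted p = 0.063). Of 5 epicardial markers tested 2 were lower and 1 higher, and of 4 endothelial ones 2 were lower (3 without D9 replicate 2). The smooth muscle counts ran from 4 to 6 lower and 0 to 2 higher over the scalings, the epicardial ones from 0 to 1 higher and the endothelial ones from 1 to 2 lower. Of 2 markers of nerve and Schwann cells 1 had at least 1 CPM on both days and was not called, and the other was lower with no D9 library at 1 CPM. No macrophage marker passed the filter. Vim, the intermediate filament of non-muscle cells, fell from 1072 ± 10.4 to 575 ± 20.1 CPM (1.87-fold).

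Genes of TGF-beta, BMP and Id signalling were lower on balance, whereas growth factor genes were split near the shares of all rows. Of 28 genes of TGF-beta, BMP and Id signalling, 19 were lower and 5 higher (median log2 -0.35). Among the 27 with at least 1 CPM on both days it was 18 and 5. Ltbp1, which stores TGF-beta in the matrix, measured 161, 159, 150 and 156 CPM on D3 and 41.7, 41.5, 41.9 and 39.7 CPM on D9 (3.77-fold lower, log2 difference -1.91 with SE 0.05, adjusted p = 5.3e-12). Tgfb1 fell from 29.5 ± 1.81 to 11.3 ± 1.46 CPM and Bmp2 from 33.5 ± 1.06 to 8.52 ± 0.770 CPM (3.78-fold), while Bmp4 rose from 36.4 ± 0.988 to 55.2 ± 1.82 CPM and Id4 from 4.56 ± 0.350 to 11.2 ± 2.44 CPM. Another ligand of the family, Tgfb2, was not called (453 ± 18.5 CPM on D3 and 482 ± 24.8 CPM on D9, adjusted p = 0.14), but without D9 replicate 2 it was higher by log2 0.13 (adjusted p = 0.0033). Of 28 growth factor ligands and receptors 8 were higher and 9 lower, and the median changed sign with the scaling (-0.145 to 0.002). Among the 27 with at least 1 CPM on both days 8 were higher and 8 lower. Erbb4, the neuregulin receptor of heart muscle, rose from 9.59 ± 1.23 to 34.4 ± 1.25 CPM (3.47-fold) and Fgf1 from 78.9 ± 2.39 to 190.2 ± 22.0 CPM, while Flt1, a receptor of VEGF, fell from 51.3 ± 2.02 to 15.4 ± 1.69 CPM (3.27-fold) and Igfbp4 from 43.5 ± 1.95 to 13.6 ± 2.91 CPM. Of 8 imprinted growth genes 6 were lower and 2 higher (5 to 6 and 1 to 2 over the scalings), with Grb10 (1.81-fold) and Mest (1.40-fold) among the lower ones. Among the 7 with at least 1 CPM on both days 5 were lower and 2 higher.

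**Figure D3:**
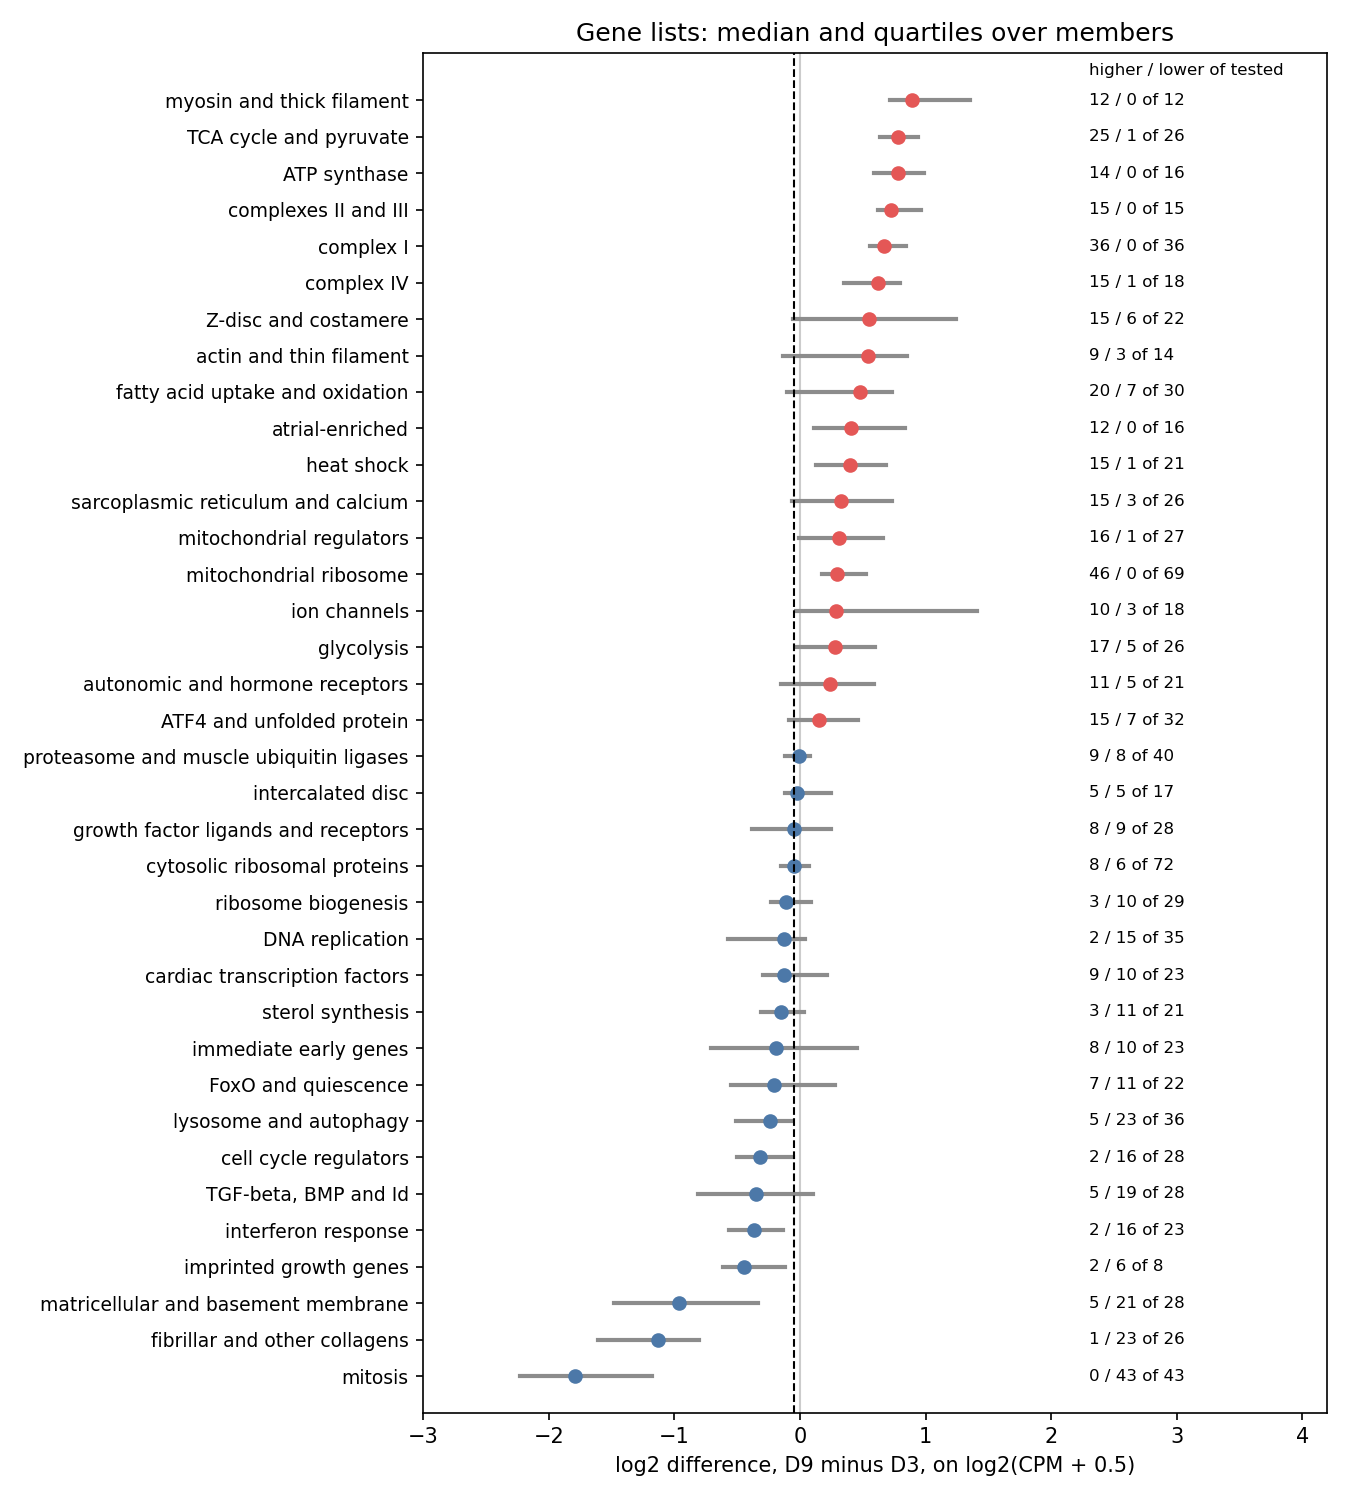
Median (point) and quartiles (bar) of the log2 difference D9 minus D3 over the tested members of each gene list described other than the cell type markers, with the number of members called higher and lower at the right and a dashed line at the median of all 11630 rows (-0.045). Red points lie above 0 and blue ones below it. Thick filament, respiratory chain and tricarboxylic acid cycle lists lie at the top, from 0.62 to 0.89, and mitosis (-1.79) and collagens (-1.13) at the bottom.

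Genes of the interferon response and of lysosomes were lower on balance. Of 23 interferon response genes 16 were lower and 2 higher (median log2 -0.36), with 0 to 3 higher over the scalings. Besides Cxcl10, the guanylate-binding protein Gbp2 fell from 72.3 ± 3.39 to 20.0 ± 0.842 CPM (3.55-fold), the peptide transporter Tap1 from 75.3 ± 5.16 to 37.0 ± 1.97 CPM and B2m, the light chain of class I molecules, from 1252 ± 32.5 to 812 ± 40.3 CPM. Of 36 lysosome and autophagy genes 23 were lower and 5 higher (median log2 -0.24), with the hydrolase Glb1 falling from 182 ± 9.00 to 71.2 ± 3.04 CPM (2.55-fold) and the protease Ctsl from 842 ± 35.9 to 472 ± 18.7 CPM. Of 22 FoxO-linked and quiescence genes 11 were lower and 7 higher. Txnip, a glucose-induced arrestin, fell from 2790 ± 28.1 to 1634 ± 46.0 CPM (1.71-fold) and Ddit4, which restrains mTOR, from 41.8 ± 5.07 to 18.2 ± 1.73 CPM, while Sod2, the mitochondrial superoxide dismutase, rose from 76.3 ± 0.395 to 204 ± 10.5 CPM (2.66-fold). Of 40 proteasome genes and muscle ubiquitin ligases 9 were higher and 8 lower (8 and 14 without D9 replicate 2), and the median changed sign with the scaling (-0.115 to 0.042), with 7 to 16 lower. The muscle ligases Fbxo40 (3.20-fold), Asb2 (2.08-fold) and Trim54 (2.15-fold) rose, and proteasome subunits such as Psma3 (1.42-fold) fell.

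Stress genes were divided. Of 21 heat shock genes 15 were higher and 1 lower (median log2 0.40), with 0 to 1 lower over the scalings. The small heat shock proteins of muscle, Hspb8 (from 46.5 ± 2.23 to 108 ± 4.11 CPM), Hspb2 (from 70.5 ± 1.18 to 149 ± 35.4 CPM) and Hspb3 (from 17.3 ± 1.66 to 31.1 ± 6.14 CPM), led the rises, and the inducible Hspa1b fell from 2.66 ± 1.16 to 1.41 ± 0.200 CPM. Of 32 genes of ATF4 and the unfolded protein response 15 were higher and 7 lower, among the higher ones Atf5 (2.12-fold), Chac1 (2.32-fold) and Atf4 itself (1.81-fold). Of 23 immediate early genes 8 were higher and 10 lower (5 to 8 and 8 to 11 over the scalings). Egr1 measured 86.1, 91.6, 87.1 and 86.4 CPM on D3 and 321, 198, 265 and 263 CPM on D9 (2.93-fold, log2 difference 1.55 with SE 0.11, adjusted p = 4e-07), with replicate 2 the lowest D9 library. Fos rose from 11.2 ± 1.34 to 24.0 ± 2.05 CPM and Nr4a3 from 3.87 ± 0.562 to 11.2 ± 1.71 CPM, and Klf4 fell from 36.7 ± 3.08 to 13.2 ± 1.47 CPM (2.72-fold). Of 21 sterol synthesis genes 11 were lower and 3 higher (median log2 -0.15, with 7 to 12 lower over the scalings), with Insig1 falling from 230 ± 2.83 to 148 ± 9.85 CPM. Genes of the cytosolic ribosome were largely not called: of 72, 8 were higher and 6 lower, and without D9 replicate 2 it was 13 and 16. Over the scalings 3 to 12 were higher and 3 to 19 lower, and the median changed sign (-0.155 to 0.007). Of 29 ribosome biogenesis genes 10 were lower and 3 higher (5 to 17 and 1 to 6 over the scalings).

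The level on each day of differentiation shows that the D3 to D9 interval held a different share of the course for different genes. Values are means with SD of 4 libraries, and the differences between days before D3 are given without a test. Mb measured 0.273 ± 0.127 CPM on D0, 0.494 ± 0.241 on D1, 1.26 ± 0.237 on D2 and 1.08 ± 0.377 on D3, before 32.5 ± 1.86 on D9, so its rise lay after D3. Myh6 had risen by D3, from 789 ± 77.8 to 8525 ± 173 CPM, and reached 38220 ± 1358 on D9. Ndufs1 measured 264 ± 11.3 on D0, 335 ± 10.3 on D3 and 811 ± 51.0 on D9. Ldhb was lower on D1 (22.9 ± 1.31) and D3 (37.7 ± 1.81) than on D0 (81.8 ± 2.23), and stood at 208 ± 19.8 on D9. Top2a lay at 878 ± 42.6 CPM on D0 and 18.9 ± 2.76 on D3, so most of its loss came before D3. Col1a1 went from 246 ± 9.09 on D0 to 138 ± 11.2 on D2, 76.8 ± 7.07 on D3 and 5.04 ± 1.12 on D9. Some genes had moved the other way before D3. Fn1 measured 6864 ± 270 on D0, 13430 ± 370 on D2 and 2844 ± 307 on D9, Cdkn1a 458 ± 14.9, 1086 ± 49.5 on D1 and 472 ± 38.0, and Bmp2 10.2 ± 1.94, 33.5 ± 1.06 on D3 and 8.52 ± 0.770. For these 3 the D9 mean lay nearer to the D0 mean than to the highest day mean.

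**Figure D4:**
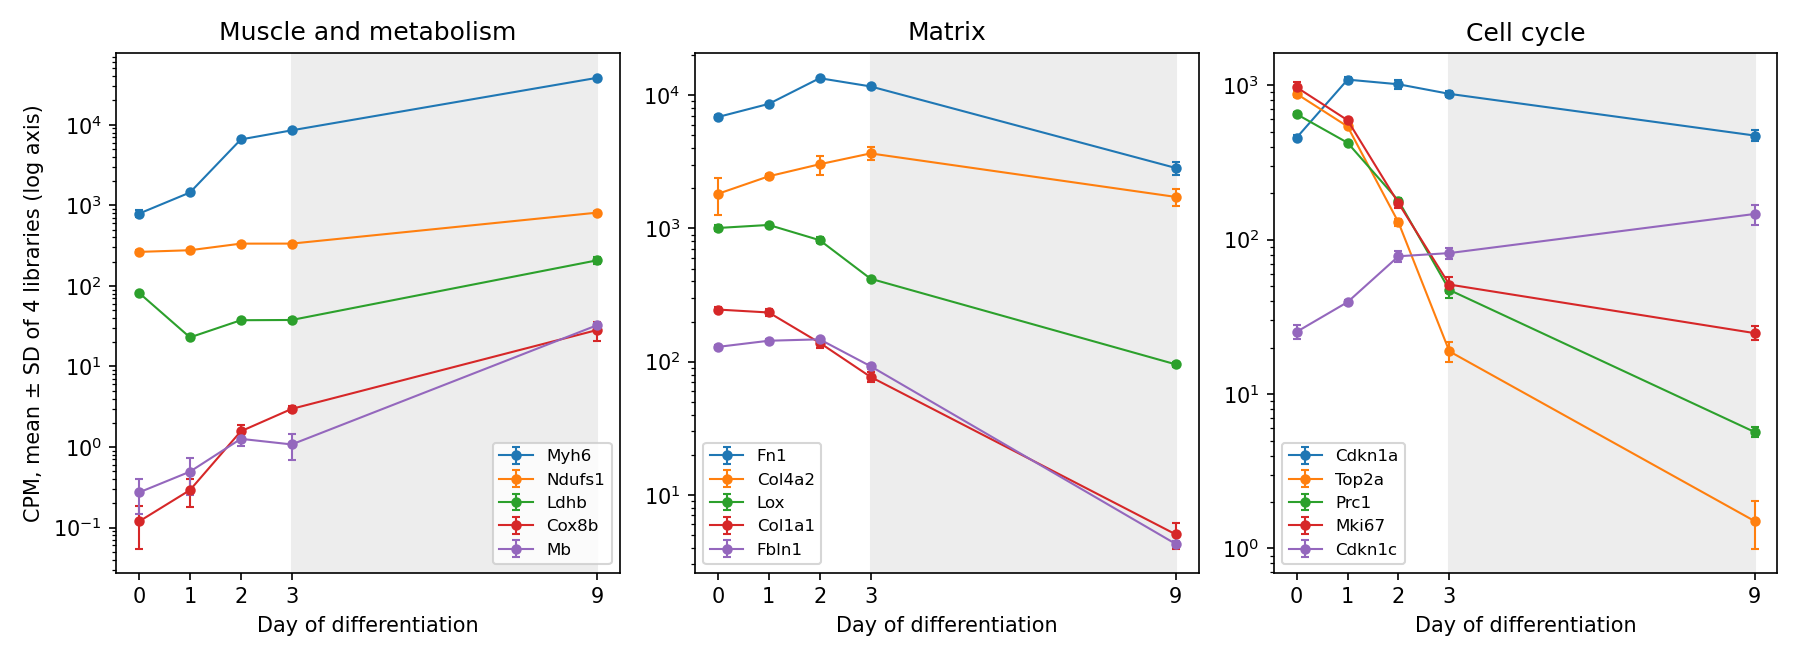
Mean CPM with SD of 4 libraries (log axis) on D0, D1, D2, D3 and D9 for selected genes. The shaded span is the D3 to D9 interval, in which Mb goes from 1.08 to 32.5 CPM while Top2a, at 878 CPM on D0, is already at 18.9 on D3.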

How the data were processed

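Poly(A) RNA was sequenced in pairs from directional libraries, per the labels' protocols. The authors deposited CPM and TPM tables over 12943 rat genes, the first with 5 construct rows, and each listed gene has reads in every library. The submitters' processing notes name Rnor_6.0 and edgeR 3.26.8, and the aligner is not given in the sources used here. Checked on the values, the deposited CPM are a signal of whole reads times a step per library (100% of values up to 20 reads whole to within 0.1 read), scaled so that the D3 and D9 columns sum to 1056130 to 1132075. The plan had called this unit CPM. The deposited TPM, named so per the file headers, served for levels between genes.

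Differences were tested with limma 3.58.1 (R 4.3.3, trend, robust) on log2(CPM + 0.5) of the 8 D3 and D9 libraries, over 11630 rows with at least 1 CPM in at least 4 of them, with Benjamini-Hochberg adjustment over all rows and 6 residual degrees of freedom. A row counted as changed at an adjusted p under 0.05. edgeR 4.0.16 and DESeq2 1.42.0 were run on the recovered reads. The script was tested on simulated data. Libraries of a day differed from one another beyond sampling noise. Members and gene lists were chosen with earlier results of these data known. The rule for names took the 12 largest rises and falls with at least 5 CPM on either day, and from each list its 3 largest called rises and falls, its most abundant gene and, for short lists, every member. Named outside it, after their values were seen, were Ldha, Slc2a4, Ckb, Pygb, Eno3, Eno1, Cdk1, Ccnb1, Tfam, Nrf1, Ppara, Esrra, Mcm2, Pcna, Cpt1a, Camk2a, Atf4, Gapdh, Fabp3, Smpx, Hspb7 and Casq2. Some genes that the rule names are not reported here. Promoters are from RefSeq (GRCr8), matched by symbol. 0 columns of per-sample values were left unused.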

Additional observations from a re-analysis of the deposited data

Results flagged for a closer look

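Within each day the 4 libraries of every named gene were examined for 1 library that lies far from the other 3, by Dixon's criterion, which chance alone meets in about 1 in 20 groups. Of 422 groups, 40 met it, and in 23 of these D9 replicate 2 was the library that stood apart. D3 replicate 1 stood apart as the highest D3 library for Pola2 (7.36 CPM). D3 replicate 2 stood apart as the highest D3 library for Casq1 (27.8 CPM) and Cenpf (9.23 CPM). D3 replicate 2 stood apart as the lowest D3 library for Hspb3 (14.8 CPM). D3 replicate 3 stood apart as the highest D3 library for Cdkn1a (939.7 CPM), Col1a1 (87.4 CPM), Col4a2 (4261 CPM), Hspa1b (4.38 CPM) and Sdha (474 CPM). D3 replicate 3 stood apart as the lowest D3 library for Fn1 (11150 CPM) and Pdlim3 (542 CPM). D3 replicate 4 stood apart as the highest D3 library for Atp2a2 (9018 CPM), Cd109 (103 CPM) and Pln (713 CPM). D9 replicate 1 stood apart as the highest D9 library for Abcc8 (77.4 CPM). D9 replicate 2 stood apart as the highest D9 library for Atf4 (324 CPM), Atp2a2 (23180 CPM), Atp5b (8493 CPM), Cdkn1c (178 CPM), Ckm (5.01 CPM), Hadh (84.2 CPM), Hspb2 (202 CPM), Hspb3 (40.3 CPM), Igfbp4 (17.9 CPM), Ldha (1607 CPM), Mdh1 (1237 CPM), Mrpl12 (231 CPM), Ndufv1 (739 CPM), Npr1 (3.35 CPM), Tnnc1 (1389 CPM), Tnni3 (340 CPM), Tnnt2 (11590 CPM), Tpm1 (13770 CPM), Tpm3 (149 CPM) and Uqcrfs1 (406 CPM). D9 replicate 2 stood apart as the lowest D9 library for Cnn1 (114 CPM), Gapdh (161 CPM) and Nr4a3 (8.69 CPM). D9 replicate 3 stood apart as the lowest D9 library for Arhgap11a (2.35 CPM). D9 replicate 4 stood apart as the lowest D9 library for T antigen (27.6 CPM).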

How the results depend on the processing

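Counts of changed rows were alike under every alternative run, from 5206 with all 36 libraries in 1 fit to 6982 without D9 replicate 2, beside 6314. The replicate block gave 6009. It was run although the numbers do not pair the libraries, since same-numbered D3 and D9 libraries deviated with correlations of 0.055, -0.075, -0.114 and 0.018, and of the named genes it cost 1, Gata4, its call. edgeR and DESeq2 on recovered reads called 6236 and 6431 rows. The number of rows at least 2-fold changed was 488 with a pseudocount of 2, of which 272 were lower, and 299 were at least 2-fold lower with a filter of 5 CPM. The first adds a larger constant to low values and the second tests fewer rows. Leaving out each library in turn, by limma or, for D9 replicate 2, also by edgeR (an alternative chosen after seeing the data), gave 5656 to 6982 called rows (2435 to 3475 higher, 3221 to 4040 lower), 759 to 886 at least 2-fold changed, 307 to 393 of these higher and 444 to 493 lower. The log2 difference of the large T antigen ranged from -0.206 to -0.098 over these fits, and was called at -0.195 without D9 replicate 2 and at -0.214 with all columns rescaled to 1 total.

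Of 4387 values of 210 named genes and construct rows under the alternatives, 4292 kept their direction and their side of the threshold, 62 lost the call, 30 gained one and 3 reversed. Reversed were Nppa (-0.608) and Acta2 (-0.0998) under quantile normalization and Dkk3 (0.0688) by edgeR without D9 replicate 2, and the cause was not tested. With 4 libraries a day, the call was lost when 1 library was left out for 7 of 192 called genes, Des, Gata4, Kcnj3, Sln, Cox11, P4ha3 and TetR-KRAB. Counting every alternative, other scalings and tools included, 19 genes lost their call under at least 1. Differences of genes near 1 CPM, as for most mitosis genes on D9, rest on few reads and depend on the pseudocount.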

Other observations

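Some genes of skeletal muscle and of receptor families moved within lists that were otherwise small or mixed. Of 4 skeletal muscle markers tested, 3 were higher and 1, Acta1, was lower. Ckm, 1 of the 3, had no D3 library at 1 CPM, and over the 3 markers with at least 1 CPM on both days 2 were higher. The fast skeletal myosin heavy chain Myh2 rose from 10.1 ± 1.32 to 19.9 ± 0.768 CPM (1.93-fold) and the perinatal one, Myh8, from 6.16 ± 0.269 to 9.74 ± 1.30 CPM (1.53-fold). Both belong to a family of near copies, so reads may be shared with Myh6, and the part of shared reads was not tested. The alpha-1 adrenergic receptors changed in opposite directions, Adra1d rising from 3.15 ± 0.587 to 13.2 ± 1.46 CPM (3.77-fold) and Adra1a falling from 3.14 ± 0.557 to 1.82 ± 0.55 CPM (1.58-fold). Klf15, a transcription factor of heart metabolism, rose from 7.66 ± 0.846 to 14.8 ± 1.25 CPM (1.89-fold), and Igfbp5, which binds insulin-like growth factors, rose from 9.26 ± 0.467 to 25.1 ± 2.20 CPM (2.61-fold), while Fgfr2 fell from 37.1 ± 1.64 to 12.1 ± 0.634 CPM (2.99-fold).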
